A study of Mus musculus with 6 samples.

Results

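Endoneurial-like fibroblasts of the newborn mouse sciatic nerve were selected by their own transcripts, and 1281 such cells were found among 9049 cells with 5 or more unique molecular identifiers (UMIs, each counting 1 captured transcript) of Col1a2 at postnatal day 1 (P1). The P1 libraries held 11735 cells with 500 to 5000 detected genes, and the whole series held 24337. A cell was taken when it had at least 5 Col1a2 UMIs and at least 2 UMIs in sum of Sox9, Osr2, Meox1 and Cdkn2b. It was left out when Itgb4, Cldn1 and Lypd2 (perineurial genes) summed to more than 1, when Pi16 and Clec3b (epineurial genes) summed to more than 3, or when it had any UMI of Mki67, Top2a, Sox10, Pecam1 or Ptprc. The 3 P1 libraries gave 391, 418 and 472 of these cells, and no barcode among them occurred in more than 1 library.

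The series profiled dissociated sciatic nerve cells on the 10x platform from 3 libraries at P1 and 3 at P60, each made from its own suspension of male and female mice pooled 1:1. Mice of both ages carried P0Cre (a Cre transgene active in the Schwann cell lineage), ReYFP (a Rosa26 reporter that turns on after Cre has acted) and βAct-DsRed (a ubiquitous red reporter) on a C57bl/6J background, with no treatment. DsRed-positive cells were sorted at both ages, and at P1 cells positive for both reporters were partly sorted away to limit Schwann cells. The sort therefore limited Schwann cells at P1 only, and the paper states that extraction efficiency also affected their number at P60. Age, sort and library batch cannot be told apart.

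Endoneurial fibroblasts lie inside the nerve fascicle among axons, Schwann cells and capillaries, and lay down the loose collagen matrix of that space. The perineurium encloses the fascicle as a layered barrier of flattened cells, and the epineurium binds fascicles together with vessels and fat. Sox9 is a transcription factor of cartilage, glial and mesenchymal progenitors, Osr2 and Meox1 are transcription factors of embryonic mesenchyme, and Cdkn2b encodes an inhibitor of the cyclin D kinases.

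Promoters of 3 genes are shown because their transcripts stood out in these cells, Apod and Angptl7 by rising with age and Col9a2 as a cartilage collagen gene. Each is the RefSeq sequence (GRCm38.p6) from 250 bases before to 50 bases after the RefSeq start, read 5′ to 3′ along the gene's strand. For Col9a2 that start lies downstream of the start in the gene coordinates given below, which are from GENCODE. Capitals mark the letters ACAAAG and ACAATG, the core words that SOX proteins bind, found on either strand (ACAATG reads CATTGT on the other strand).
Apod, chr16:31314759-31315058, minus strand: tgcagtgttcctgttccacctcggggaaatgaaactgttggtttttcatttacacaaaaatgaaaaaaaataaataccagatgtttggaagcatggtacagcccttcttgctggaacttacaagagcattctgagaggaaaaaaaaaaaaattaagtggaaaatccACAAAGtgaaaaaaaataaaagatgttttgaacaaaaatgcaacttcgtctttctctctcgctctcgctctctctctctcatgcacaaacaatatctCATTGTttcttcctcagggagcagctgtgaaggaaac
Angptl7, chr4:148500413-148500712, minus strand: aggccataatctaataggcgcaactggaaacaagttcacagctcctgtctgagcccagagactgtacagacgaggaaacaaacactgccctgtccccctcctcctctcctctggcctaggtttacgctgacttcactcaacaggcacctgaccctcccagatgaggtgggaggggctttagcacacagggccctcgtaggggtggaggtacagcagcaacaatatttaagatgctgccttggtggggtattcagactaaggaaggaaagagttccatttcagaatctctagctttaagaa
Col9a2, chr4:121039316-121039615, plus strand: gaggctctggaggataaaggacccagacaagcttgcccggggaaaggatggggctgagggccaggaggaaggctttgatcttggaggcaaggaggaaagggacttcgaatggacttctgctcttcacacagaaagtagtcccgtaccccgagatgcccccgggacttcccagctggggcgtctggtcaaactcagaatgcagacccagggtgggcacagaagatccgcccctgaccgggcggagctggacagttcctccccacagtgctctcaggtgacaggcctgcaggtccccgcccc
The Apod window held 1 match to each word, and the other 2 windows held none. Over all 32817 promoters of this length, ACAATG occurred in 12.58%, ACAAAG in 18.72% and at least 1 of both in 28.61%. Among the 30 genes that led at P1, 17 had an entry, with 25 promoters, and 2 of those promoters held a match. These matches are a description of letters only.

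Ccl11 and Apod, the endoneurial markers that the selection did not read, were high in every P1 library of the selected cells. Apod (chr16:31296192-31314808, GRCm38, minus strand), which encodes a secreted lipid-binding lipocalin, stood at 2588, 2671 and 2647 CPM (counts per 1000000 UMIs, over the summed UMIs of the cells in a library), against 334, 324 and 315 CPM in the 7768 other Col1a2 cells. Ccl11 (chr11:82057823-82062955, plus strand), which encodes the eosinophil chemokine eotaxin, stood at 1742, 1851 and 1936 CPM against 300, 268 and 313. For both genes every library of the selected cells lay above every library of the others. Lists of markers were compared in the same way. Of 8 endoneurial markers outside the selection with enough UMIs to describe, 7 were at least 2-fold higher in all 3 libraries, and Lpl (lipoprotein lipase) was at least 2-fold lower. The ninth, Wif1, was near 0 in the selected cells. Ccl11 and Apod thus went with the label. These markers were chosen with earlier results of these data known, so their levels are a description and no independent check. The cells are called endoneurial-like below. Of 8 fibroblast genes 1 was at least 2-fold higher and 1 lower.

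Within the endoneurial-like cells, the 4 selecting genes were found together in 422 cells (32.9%), 3 of them in 475, 2 in 293 and 1 in 91. Sox9 had a UMI in 79.3% of the cells, Meox1 in 78.2%, Osr2 in 74.6% and Cdkn2b in 63.8%. The median sum was 8 UMIs, with quartiles of 5 and 11. Since the selection read these genes, the values only describe how far above the limit the cells lay. A limit without any 1 of the 4 genes would have kept 91.0% (without Sox9) to 96.8% (without Cdkn2b) of these P1 cells.

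Just outside and just inside the marker limit lay 189 P1 cells with a sum of 1 and 124 with a sum of 2, all passing every other limit. Ccl11 was 489 ± 196 CPM (SD, n = 3 libraries) at a sum of 1 and 993 ± 135 at a sum of 2, and 2069 ± 114 at 9 or more. Apod went from 676 ± 201 to 1130 ± 371 and 2954 ± 93.7 CPM over the same sums. Mbp, the myelin basic protein gene of Schwann cells, ran the other way, with 1616 ± 575 CPM at a sum of 1, 358 ± 185 at 2 and 66.0 ± 8.77 at 9 or more. Acta2, a smooth muscle actin gene, was at 710 ± 262 CPM at a sum of 1 and 47.3 ± 39.8 at 2. Cells just inside the limit thus carried more Mbp CPM than the rest of the selected cells.

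**Figure D1:**
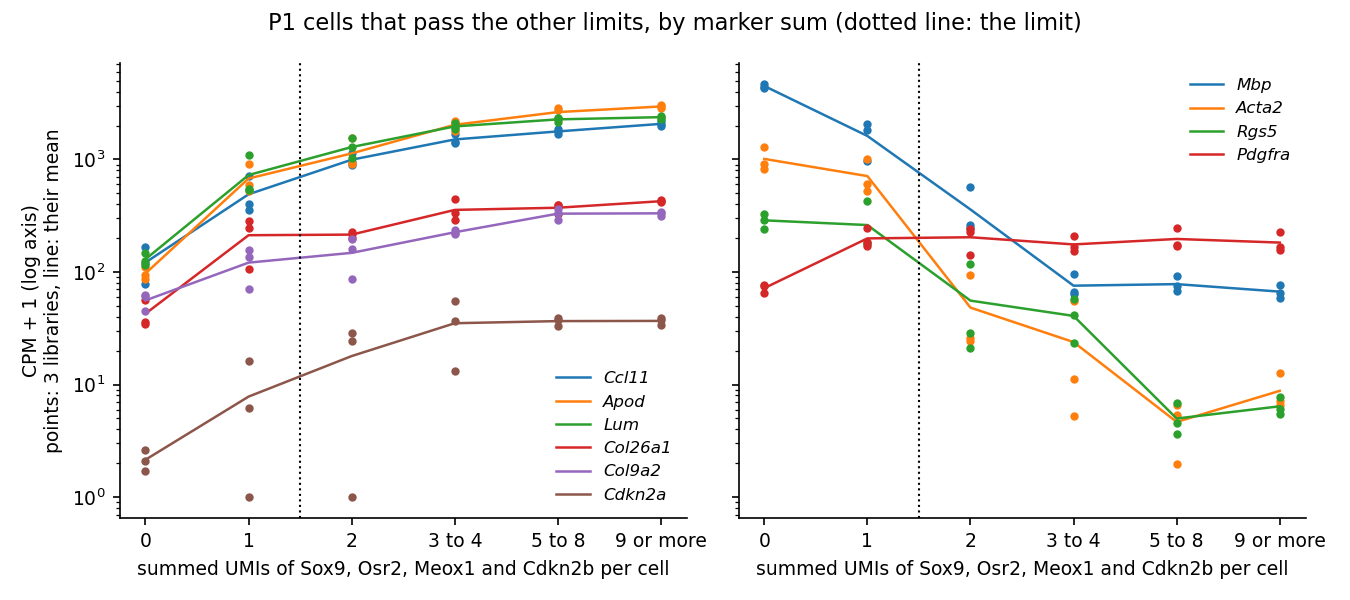
Level of marker genes in P1 cells that pass every other limit (y axis, CPM + 1, log axis) against the summed UMIs of Sox9, Osr2, Meox1 and Cdkn2b per cell (x axis), with 1 point per library and lines through the mean of 3 libraries. The dotted line is the limit of 2; Ccl11 lay at 489 CPM at a sum of 1 and 993 at 2, while Mbp lay at 1616 and 358.

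Depth and other cell types stood beside these values. The endoneurial-like cells had a median of 9105 UMIs per cell (8610.5 to 9354 by library) against 6505 in the other Col1a2 cells, and 11458978 UMIs in all. Marker lists were summed without the genes that the selection reads. The 9 Schwann markers left summed to 350 to 431 CPM in the endoneurial-like cells and to 23740 to 26440 CPM in P1 cells with a Sox10 UMI. Mbp had a UMI in 15.9% of endoneurial-like cells thinned to 3000 UMIs, and in 20.15% of the epineurial-like cells, which should lack it (both by 1 draw). Summed levels in the 3 libraries ran from 43.2 to 44.6 CPM for 7 endothelial markers, 162 to 172 for 8 mural markers, 44.3 to 141 for 7 immune markers, 5.93 to 72.4 for 5 erythroid markers, 87.9 to 92.9 for 5 perineurial markers and 130 to 162 for 6 epineurial markers. The 5 perineurial markers summed to 53.3 to 58.6 CPM in the other P1 Col1a2 cells and 15.5 to 16.6 in epineurial-like cells. In the P1 perineurial-like cells (defined below) they summed to 180 to 196 CPM. Of 3 perineurial markers described outside the selection, 1 was at least 2-fold higher than in the other Col1a2 cells (Moxd1, log2 ratio 1.27) and 0 were lower. Of the defining markers left out of the summed lists, Sox10, Pecam1 and Ptprc are at 0 by the selection. Barcodes outside cells were not used here, so the level of free RNA was not measured, and its part in the results was not tested.

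Against the other P1 Col1a2 cells, 165 of 8802 described genes (1.87%) were at least 2-fold higher in 3 of 3 libraries (10 CPM added to both sides), and 493 (5.6%) were at least 2-fold lower. This contrast is the one that the selection made, so the values are given as a description with no test. The other cells are a mixture in which 27.1% had a Sox10 UMI and 22.2% were epineurial-like (Pi16 and Clec3b above the limit, none of the excluded genes, not perineurial). The 30 genes with the greatest mean ratio had log2 ratios of 1.80 to 2.99 (SD over libraries 0.0206 to 0.25). They were led by Apod (2.99 ± 0.06, SD, n = 3) and Ccl11 (2.61 ± 0.12). All 30 were also higher than in the epineurial-like cells and than in the perineurial-like cells (411 cells with Itgb4, Cldn1 and Lypd2 above the limit, Pi16 and Clec3b within it, and none of the excluded genes) in 3 of 3 libraries. Both kinds are part of the other cells that the 30 were ranked against, so that ranking set this count in part. The share over all described genes was not counted, and this is a description only.

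The 30 included several genes of the matrix. Col26a1, a little-studied collagen gene, stood at 398, 385 and 378 CPM, against a mean of 69.7 in the other Col1a2 cells and 14.5 in the epineurial-like cells. Col9a2 (chr4:121039385-121055322, plus strand), a chain of the collagen that decorates cartilage fibrils, stood at 285, 310 and 324 CPM against 56.3 and 13.2. Col2a1 (chr15:97975602-98004695, minus strand), the fibril collagen of cartilage, stood at 161, 164 and 162 CPM against 27.7 and 8.51. For these 3 genes the libraries of endoneurial-like cells lay close together and above all others. Lum, which encodes the fibril-regulating proteoglycan lumican, stood at 2216, 2239 and 2223 CPM against 585 and 1004. Tgfbi, which encodes a matrix protein induced by TGF-beta, stood at 2374, 2362 and 2301 CPM against 482 and 254. Of the collagen list, 6 of 25 described genes were at least 2-fold higher and 2 lower, with a median log2 ratio of 0.58 against -0.07 over all described genes. Of the cartilage list, 3 of 7 were at least 2-fold higher (Col9a2, Col2a1 and Col11a1) and 0 lower.

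Col2a1 was found in 537 endoneurial-like cells of P1 and not in the other 744. The cells that had it carried more Col9a1, Col9a2, Col9a3 and Col11a1 in 3 of 3 libraries, but Col11a2 overlapped. Col9a2 stood at 426, 422 and 479 CPM in cells with a Col2a1 UMI, against 164, 222 and 206 in cells without. Col11a1 was 439 ± 19.4 CPM (SD, n = 3) with and 286 ± 34.0 without. Col9a1 was 36.9 ± 14.0 with and 10.6 ± 2.09 without, and Col11a2 was 3.74 ± 3.27 with and 3.40 ± 0.566 without. Acan, the main proteoglycan of cartilage, was at 4.74 ± 0.678 CPM with and 1.74 ± 0.315 without, and Scx, a transcription factor of tendon, had 0 UMIs in either. Apod (3164 ± 123 with and 2214 ± 56.6 without), Lum (2485 ± 6.36 and 2018 ± 26.6) and Col26a1 (455 ± 14.1 and 332 ± 5.68) were also higher with Col2a1 in 3 of 3 libraries, while Ccl11, at 1862 ± 122 and 1829 ± 95.7 CPM, overlapped. Median depth was 9575 and 8685.5 UMIs. At P60, under the same limits, 61 cells had a Col2a1 UMI and 314 had none. There Col9a2 (124 ± 32.2 CPM with and 118 ± 29.2 without) and Col11a1 (114 ± 62.9 and 99.0 ± 24.6) overlapped. This split was chosen after values were seen and is a description with no test.

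Genes of secreted signals were also among the 30. The chemokine genes Cxcl1, a neutrophil attractant, and Ccl2, a monocyte attractant, stood at 622, 638 and 529 CPM and at 335, 351 and 352 CPM, against means of 160 and 92.5 in the other Col1a2 cells. Ccl2 (chr11:82035571-82037453), Ccl7 (a monocyte chemokine gene, chr11:82045712-82047525) and Ccl11 are neighbours on chromosome 11. Of the chemokine and complement list, 5 of 11 described genes were at least 2-fold higher and 1 lower (C2, a complement component). Igfbp2 (chr1:72824503-72852474), a binding protein of insulin-like growth factors, stood at 278, 282 and 264 CPM against 58.9. Angptl7 (chr4:148495183-148500460, minus strand, within Mtor on the other strand), which encodes a secreted angiopoietin-like protein, stood at 196, 164 and 120 CPM against 22.0. Its level differed most between libraries among the 30 (SD of the log2 ratio 0.25).

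Other genes among the 30 encode surface, signalling and nuclear proteins. Rasgrp2, which encodes an exchange factor for Rap1, stood at 636, 701 and 707 CPM against 116 in the other Col1a2 cells. Emcn, which encodes endomucin and is best known from venous and capillary endothelium, stood at 183, 184 and 182 CPM against 41.0, in cells with 0 Pecam1 UMIs. Thbs4 (thrombospondin 4) stood at 1157, 1168 and 1157 CPM against 292, but at 885 in the perineurial-like cells. Thbs4, Col8a1 and P2ry14 came closest to the perineurial-like level, with log2 ratios of 0.39, 0.38 and 0.49 over those cells. Foxs1, a forkhead transcription factor gene, stood at 294, 297 and 277 CPM against 54.4. The remaining leading genes were Cst6, Cpne8, Cplx2, 6030408B16Rik, A230065H16Rik, Plxdc1, Ifi30, Fndc5, Hpca, Homer2, Spry4, Cd24a and Rcsd1, with log2 ratios from 1.80 to 2.39.

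Ratios over the perineurial-like cells were smaller than those over the epineurial-like cells for most of these genes. Ccl11 had a log2 ratio of 1.11 over perineurial-like and 4.33 over epineurial-like cells, and Apod had 2.01 and 3.65. In cells thinned to 3000 UMIs, Ccl11 had a UMI in 96.7% of endoneurial-like, 65.5% of perineurial-like and 11.3% of epineurial-like cells at P1. Col26a1 was found in 63.2%, 34.0% and 2.60% of them, and Col2a1 in 24.2%, 4.11% and 1.39%. In P1 cells with a Sox10 UMI the shares were 8.63%, 7.53% and 2.81%. Col9a2 was found in 48.0%, 10.7% and 3.27% of the first 3 kinds, and in 14.2% of cells with a Sox10 UMI, above the perineurial-like share. Lum differed from Ccl11 and Apod, with log2 ratios of 1.29 over perineurial-like and 1.14 over epineurial-like cells.

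**Figure D2:**
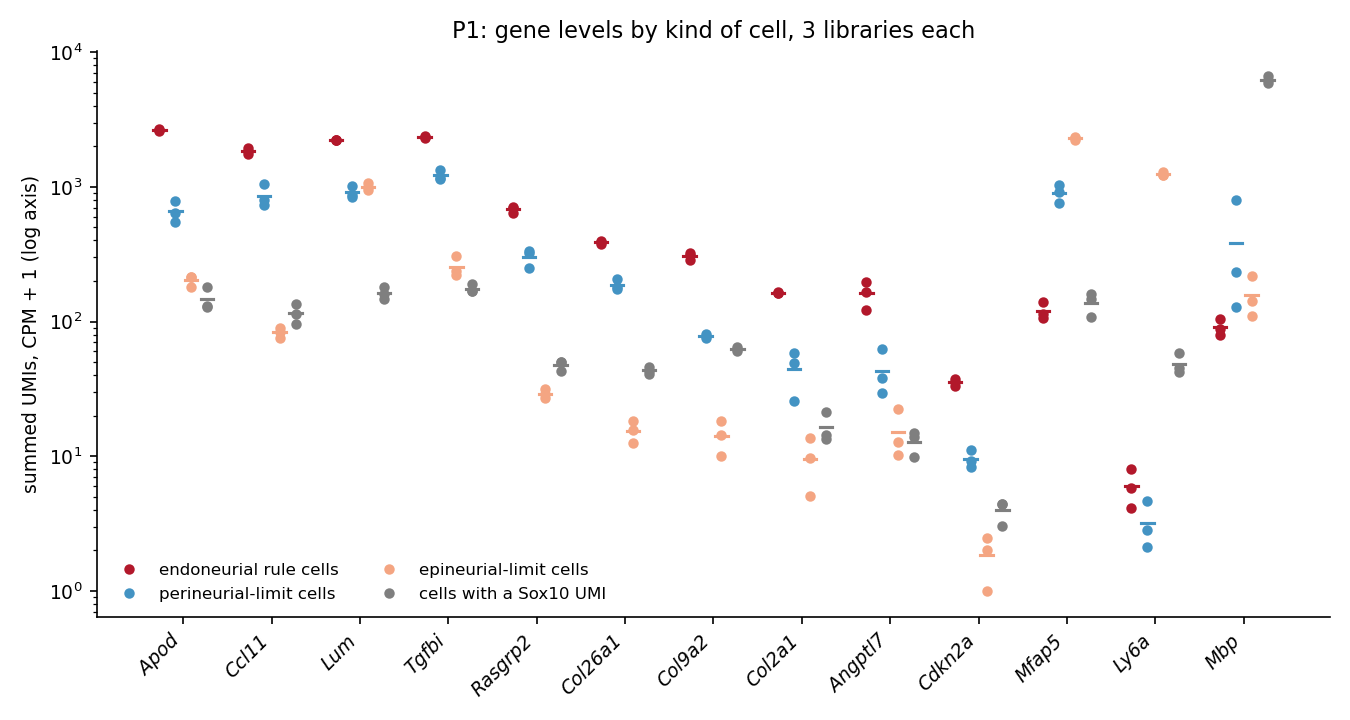
Levels of 13 genes at P1 (y axis, CPM + 1, log axis) in the selected endoneurial-like cells, perineurial-like cells, epineurial-like cells and cells with a Sox10 UMI, with 1 point per library and a bar at the mean of 3. Ccl11 and Col26a1 lie highest in the endoneurial-like cells, next in the perineurial-like cells and lowest in the other 2 kinds, while Mbp is high in cells with a Sox10 UMI.

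Of 22 described mesenchymal transcription factors outside the selection, 3 were at least 2-fold higher and 5 lower. Etv1 and Etv4, ETS factors that respond to receptor tyrosine kinase signalling, were higher, with Etv1 at 180, 176 and 182 CPM against 46.4, while Osr1 was lower at 27.7, 29.2 and 34.4 against 107. Cdkn2a, the neighbour of Cdkn2b (chr4:89274471-89294653 and chr4:89306299-89311039), encodes the cell cycle inhibitors p16 and p19 from transcripts that share their 3′ end and cannot be told apart here. It stood at 36.7, 34.5 and 32.1 CPM against 4.77 in the other Col1a2 cells and 0.832 in the epineurial-like cells. Cdkn1a, the p53 target p21, ran the other way at 21.5, 12.9 and 13.5 CPM against 206.

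Secreted Wnt antagonists were low in endoneurial-like cells, and 6 of 10 described Wnt antagonists and targets were at least 2-fold lower and 2 higher (median log2 ratio -1.59). Sfrp4, Sfrp2, Sfrp5 and Sfrp1, which encode secreted frizzled-related proteins, had log2 ratios of -3.42, -3.18, -2.65 and -2.20. Of 13 TGF-beta and BMP genes 0 were higher and 5 lower, with Fst (follistatin, an activin binder) at 2.83, 4.21 and 4.59 CPM against 146. Of 9 hedgehog receptors and targets 0 were higher and 3 lower, with Gas1, a hedgehog co-receptor, at 14.7, 12.6 and 13.5 CPM against 220. Of 16 trophic and growth factors 1 was higher and 6 lower, with Gas6, a TAM receptor ligand, at 7.91, 5.89 and 6.43 CPM against 72.4.

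The remaining lists were counted in the same way, beside 1.87% higher and 5.6% lower over all described genes. Of 11 axon guidance ligands 0 were higher and 3 lower (Sema3c, Sema3b and Ntn1), and of 11 basal lamina genes 0 passed in either direction. Of 17 proteoglycans 2 were higher (Lum and Gpc4) and 2 lower (Spon2 and Aspn). Of 11 genes of the IGF axis 1 was higher and 1 lower, of 18 ABC transporter and lipid genes 3 and 6, and of 9 D cyclins and kinase inhibitors 2 and 3. None of 18 imprinted growth genes and none of 5 MHC class I genes passed in either direction. Of 20 cell cycle genes outside the selection, 0 were higher and 11 lower in cells that were chosen to lack Mki67 and Top2a. Their median log2 ratio was -1.37 over the other Col1a2 cells but 0.48 over the epineurial-like cells, which lack both genes too. They summed to 2153 to 2265 CPM in the endoneurial-like and 1450 to 1472 in the epineurial-like cells. Of 14 dissociation response genes 1 was higher (Btg2, 705, 682 and 740 CPM against 329).

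Of 9 Schwann markers described outside the selection, 8 were at least 2-fold lower and 0 higher. Mbp stood at 104.0, 86.7 and 78.7 CPM against 2272, 2456 and 2429 in the other Col1a2 cells, a log2 ratio of -4.59 ± 0.24 (SD, n = 3). Egfl8, Mal, Cnp, Cryab and Ednrb had log2 ratios of -4.01 to -4.40, and over the epineurial-like cells, which lack Sox10, these ranged from -0.10 to -1.21. Ly6a, a surface antigen gene, differed from that pattern, with 3.11, 7.02 and 4.82 CPM against 345, 369 and 356, and a log2 ratio of -6.39 over the epineurial-like cells. Id2, an inhibitor of helix-loop-helix factors, stood at 15.5, 14.3 and 13.8 CPM against 388, 408 and 397.

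The same limits at P60 gave 375 cells (109, 120 and 146 by library) of 6162 Col1a2 cells. The share of Col1a2 cells was 14.5, 13.2 and 14.8% at P1 and 5.67, 5.48 and 7.13% at P60, and the ages did not overlap. The difference was -8.08 percentage points (14.2 ± 0.823% against 6.09 ± 0.901%, SD, n = 3), with a two-sided exact permutation p of 0.1, the smallest that 3 libraries against 3 can give. The limit on Pi16 and Clec3b kept 1756 of 2059 cells at P1 but 405 of 963 at P60. The cells kept at P60 were shallower than the rest, at a median of 3376 UMIs against 5645 in the other Col1a2 cells. They held 1356856 UMIs in all, and their median marker sum was 4 against 8 at P1. The limits are raw UMI numbers, so the share compares cells under these limits at each age rather than all endoneurial fibroblasts.

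Since the selection read the 4 genes at P60 too, their levels are a description. Of the P60 cells, 24.8% had only 1 of the 4 genes. A limit without Osr2 would have kept 62.1% of them, and one without Meox1 92.8%. Osr2 had a UMI in 77.9% of them and in 24.6% of the epineurial-like cells of P60. Osr2 stood at 743, 644 and 469 CPM at P60 and 230, 247 and 237 at P1. Meox1 stood at 184, 202 and 161 CPM at P60 and 324, 323 and 313 at P1. Cdkn2b stood at 197, 198 and 200 CPM at P60 against 142, 156 and 152, and Sox9 at 219, 186 and 416 against 213, 232 and 238. P60 replicate 3 differed for Sox9. In that library 16.2% of all cells exceeded 10% mitochondrial UMIs, against 2.97% and 4.84% in the other P60 libraries.

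Cells with a cycle gene were left out by the selection, and were counted apart. Among cells that passed every other limit, Mki67 or Top2a had a UMI in 20.04, 20.83 and 20.14% at P1 (327 of 1608 cells) and in 0, 0.826 and 1.35% at P60 (3 of 378). In cells thinned to 3000 UMIs the shares were 11.5, 13.7 and 12.0% against 0, 1.12 and 4.62%. The ages did not overlap at either depth. This count was added after values were seen and was not tested.

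**Figure D3:**
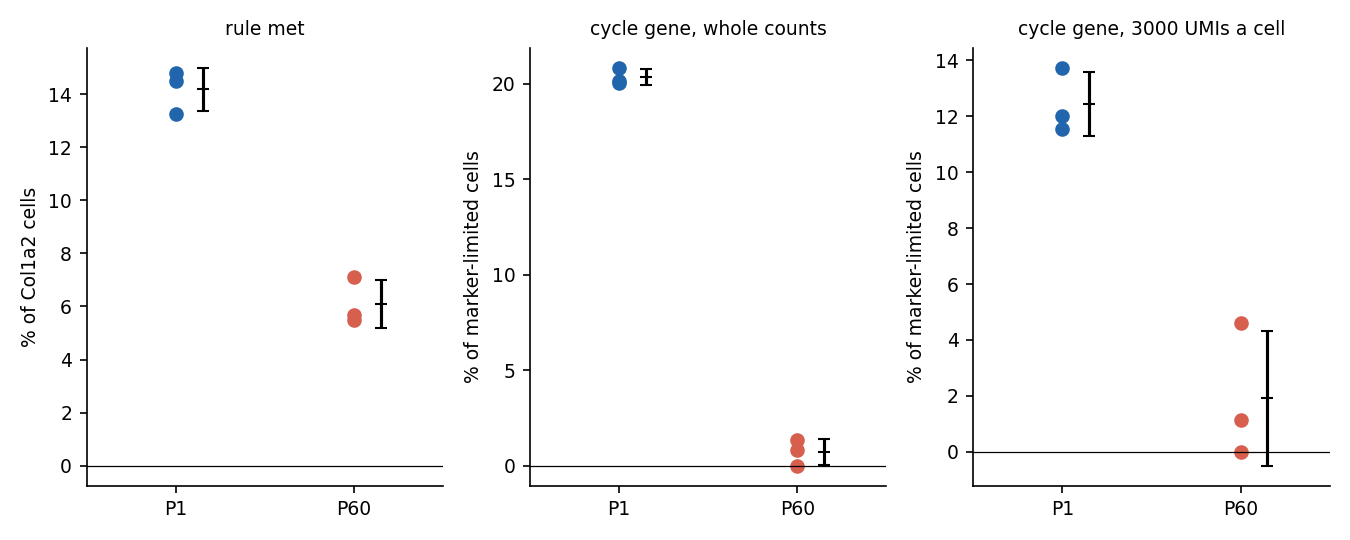
Share per library (y axes, %) at P1 and P60 of Col1a2 cells that meet every limit, and of cells with an Mki67 or Top2a UMI among those that meet all others, by whole counts and after thinning to 3000 UMIs a cell, with the mean ± SD of 3 libraries beside the points. P1 libraries lie at 13.2 to 14.8% in the first panel and P60 libraries at 5.48 to 7.13%.

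Of the 30 genes that led at P1, 21 were at least 2-fold higher than in the other Col1a2 cells in 3 of 3 P60 libraries too, where 233 of 8995 described genes (2.59%) were, and 0 were at least 2-fold lower. Apod had a log2 ratio of 3.85 ± 0.29 (SD, n = 3) at P60 against 2.99 ± 0.06 at P1, and Angptl7 had 4.22 ± 0.29 against 2.41 ± 0.25. Col9a2 had 3.10 ± 0.11 against 2.25 ± 0.11. Without the others that had a Sox10, Pecam1, Ptprc, Mki67 or Top2a UMI, the P1 ratios of these genes were 3.42, 2.81 and 2.94. P60 ratios without those cells are not given here. Emcn and Igfbp2 went below 0 at P60, at -1.11 ± 0.36 and -0.46 ± 0.10. Homer2 did as well, at -0.35 ± 0.37, while Cd24a (0.08 ± 0.37), Col8a1 and Cpne8 lay close to the level in the other cells. Emcn had 3 and Igfbp2 0 UMIs in the endoneurial-like cells of P60, so the size of their ratios depends on the 10 CPM added.

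**Figure D4:**
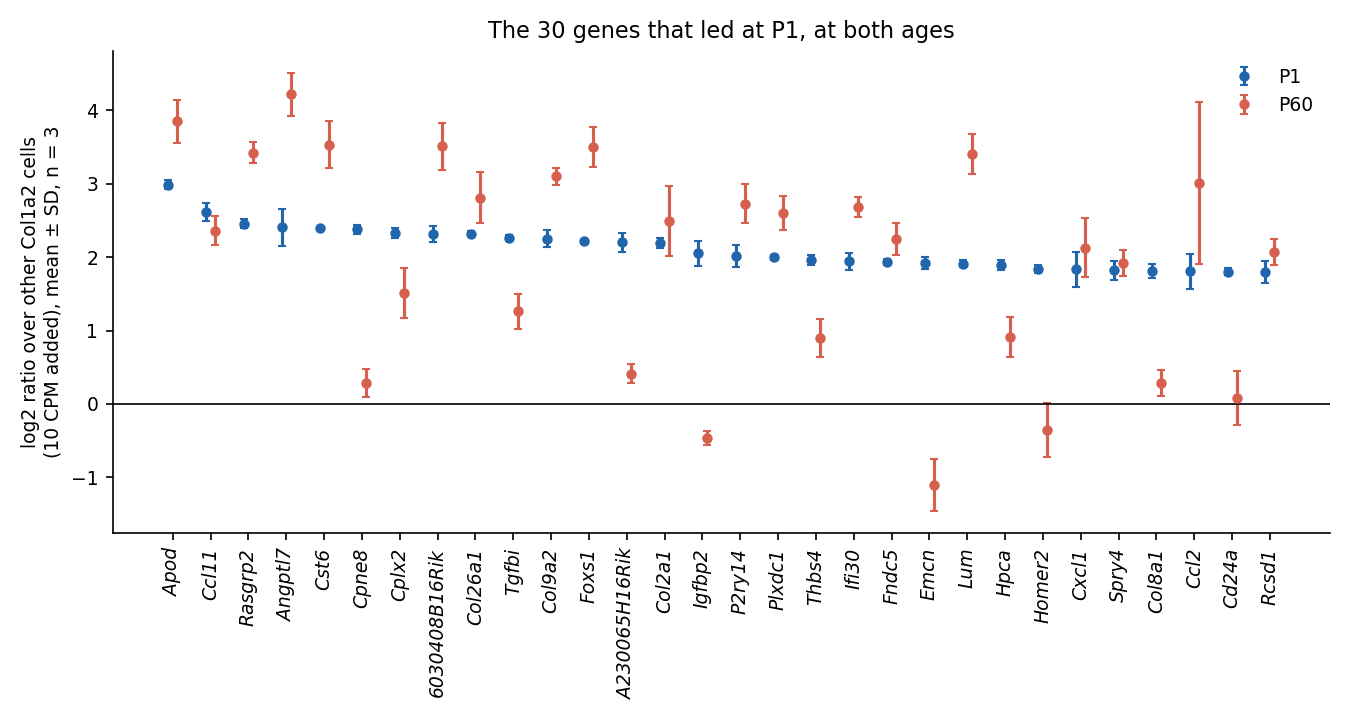
Log2 ratio of endoneurial-like over other Col1a2 cells (y axis, 10 CPM added) for the 30 genes that led at P1, at P1 and at P60, as mean ± SD of 3 libraries. Apod, Angptl7 and Lum stay high or go higher at P60, while Emcn and Igfbp2 fall below 0.

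Expression in these cells changed widely between P1 and P60. Of 10087 genes tested on UMIs summed per library, 1957 (19.4%) were higher at P60 and 1849 (18.3%) were lower (edgeR quasi-likelihood test, Benjamini-Hochberg adjusted p under 0.05). The balance turned with scaling by library size alone, to 1731 higher and 2233 lower, and without any 1 P60 library (1660 and 1748, 1649 and 1708, and 1779 and 1860). The 15 genes that the selection reads were left out of this test. Among the 30 leading genes, 10 rose, 16 fell and 4 did not pass (Rasgrp2, Cpne8, Foxs1 and Spry4). The 30 were chosen by high P1 values, which form 1 side of this test, so these counts are a description. Foxs1 passed without P60 replicate 3 (edgeR adjusted p = 0.0041), and Plxdc1, one of the 10, did not pass without P60 replicate 1 (0.19) or 2 (0.22). Epineurial markers rose too. Of 5 tested, 5 were higher at P60. The 6 epineurial markers that the selection does not read summed to 668 to 1147 CPM in the P60 cells against 130 to 162 at P1. In epineurial-like cells they summed to 5516 to 6477 CPM at P60 and 2913 to 3041 at P1. The part of these markers in the age changes was not tested.

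Apod, Angptl7 and genes of the ABC transporter and lipid list rose. Apod went from 2588, 2671 and 2647 CPM to 35370, 33940 and 25560 (log2 change 3.68 ± 0.14 SE, edgeR adjusted p = 1.2e-12), against 2239 CPM in the epineurial-like and 1861 in the perineurial-like cells of P60. Angptl7 went from 196, 164 and 120 to 7435, 7012 and 5124 CPM (5.45 ± 0.20, edgeR adjusted p = 1.2e-12). Both genes stood above every other kind of cell compared at P60. Of 17 ABC transporter and lipid genes tested, 11 rose and 2 fell, with a median log2 change of 1.90 against -0.01 over all genes. Abca6, an ABC lipid transporter gene, went from 32.2, 39.6 and 36.7 to 405, 346 and 474 CPM. Crispld2, which encodes a secreted glycoprotein, went from 32.8, 24.4 and 35.8 to 1209, 1074 and 1364 CPM (5.37 ± 0.15, edgeR adjusted p = 4.6e-14), with 88.3 to 146 CPM in the epineurial-like cells of P60.

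Other genes with the greatest rise were as high or higher in neighbouring cells. Gsn (chr2:35256380-35307892), the actin-severing gelsolin, went from 184, 218 and 206 to 22860, 19890 and 15180 CPM (6.67 ± 0.18, edgeR adjusted p = 4.3e-14), against 28300, 25970 and 18780 in the epineurial-like cells of P60. Efemp1 (chr11:28853204-28926743), which encodes fibulin 3, went from 0.565, 0.561 and 1.15 to 562, 513 and 359 CPM (9.24 ± 0.27, edgeR adjusted p = 7.9e-14), and stood at 501, 495 and 488 CPM in those cells. Myoc (myocilin) went from 0, 0 and 1.15 to 1497, 1267 and 692 CPM, against 1354, 1426 and 972 in them. C3, the central complement component, went from at most 0.842 to 42.0, 62.1 and 130 CPM, against 1044, 1066 and 1158 in them. Retnla, a macrophage and adipose secreted factor, had 0 UMIs at P1 and stood at 108, 77.7 and 46.3 CPM at P60, at least 296-fold higher (3 UMIs set for the P1 group), against 161, 246 and 73.7 CPM in them. Ace and Medag likewise stood lower than in those cells, at means of 94.3 and 64.1 CPM.

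A smaller set of the risen genes stood above the epineurial-like cells. Cpxm2 (chr7:132032687-132154739, overlapped by Fgfr2 on the same strand), a carboxypeptidase-like gene, had 0 UMIs at P1 and 363, 326 and 185 CPM at P60, at least 1112-fold higher, against 67.2, 44.5 and 26.4 CPM in the epineurial-like cells of P60. Phactr3, a regulator of phosphatase 1 and actin, went from at most 0.842 to 53.1, 55.5 and 41.9 CPM, against 3.26 to 5.87. Ptgfr, the prostaglandin F receptor, went from at most 0.918 to 53.1, 71.0 and 90.3 CPM, against 10.9 to 18.2. Medag rested on 87 UMIs at P60 but 2 at P1, and its CPM ratio was 367 (95% interval from counting, 98.7 to 3082).

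**Figure D5:**
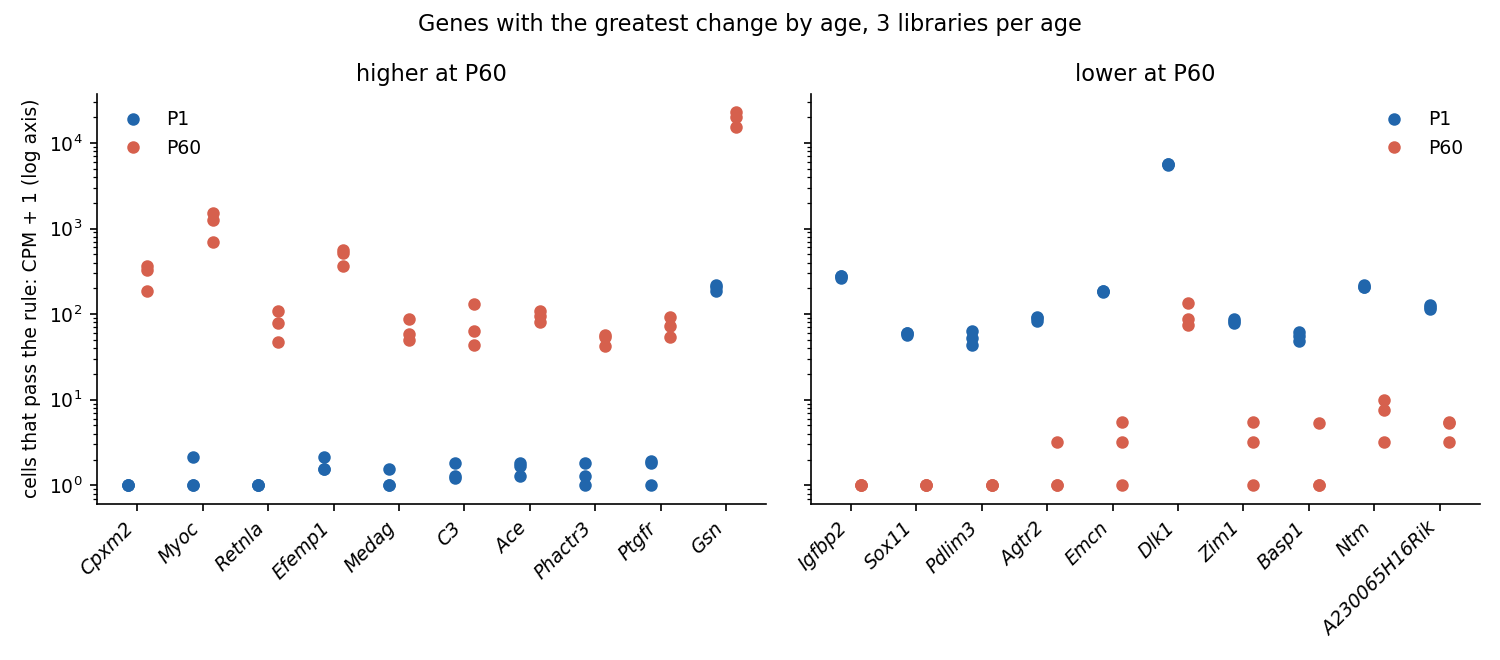
Levels in the endoneurial-like cells (y axis, CPM + 1, log axis) of the 10 genes with the greatest change by age in each direction, with 1 point per library at P1 and at P60. Gsn rises to 15180 to 22860 CPM and Dlk1 falls to 73.0 to 135 CPM, and the ages do not overlap for any gene shown.

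Imprinted growth genes fell for the most part. Dlk1 (chr12:109452823-109463336), an imprinted Notch-like growth regulator, went from 5629, 5633 and 5537 to 73.0, 135 and 85.9 CPM, a log2 change of -5.74 ± 0.17 (edgeR adjusted p = 9.9e-14). Of 18 imprinted growth genes tested, 15 fell and 1 rose (Sgce, chosen after values were seen), with a median log2 change of -1.90. Igf2, Zim1 and Nnat were among those with the greatest fall, and Igf2 went from 20.1, 15.7 and 17.9 CPM to 0 UMIs. Igfbp2 went from 278, 282 and 264 CPM to 0 UMIs, at least 124-fold lower. Of 11 IGF axis genes 4 rose and 5 fell, Htra1, a protease of matrix and IGF binding proteins, going from 62.2, 59.8 and 73.2 to 940, 863 and 672 CPM.

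Other genes among those with the greatest fall had few or no UMIs at P60. Sox11, a transcription factor of immature cells, stood at 59.6, 56.4 and 59.9 CPM at P1 with 0 UMIs at P60, at least 26.6-fold lower. Pdlim3, an actin-associated protein gene, had 42.4, 62.3 and 51.6 CPM at P1 and 0 UMIs at P60, at least 23.6-fold lower. Emcn went from 183, 184 and 182 CPM to 0, 4.44 and 2.20, which is 82.7-fold lower (95% interval from counting, 28.3 to 401, on 3 UMIs at P60). Agtr2 (the angiotensin II type 2 receptor), Basp1, Ntm (neurotrimin) and A230065H16Rik fell with log2 changes of -6.70, -5.06, -5.05 and -4.92. Of 16 cell cycle genes tested 14 fell and 0 rose.

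The collagens fell on balance, with 17 of 27 tested lower and 4 higher at P60 and a median log2 change of -0.69. Col9a2 went from 285, 310 and 324 to 144, 102 and 112 CPM (-1.27 ± 0.14, edgeR adjusted p = 1.7e-06). Col2a1 went from 161, 164 and 162 to 35.4, 68.8 and 68.3 CPM (-1.41 ± 0.17, edgeR adjusted p = 5.1e-06). Both nevertheless had higher log2 ratios over the other Col1a2 cells at P60 than at P1, 3.10 against 2.25 and 2.49 against 2.19. Those other cells differed by age, with a Sox10 UMI in 27.1% at P1 and 1.73% at P60. Without the others that had a Sox10, Pecam1, Ptprc, Mki67 or Top2a UMI, the P1 ratios were 2.94 and 2.63. P60 ratios without them are not given here, and the part of this mixture was not tested. Col9a1 and Col9a3 had 0 UMIs at P60, at least 10.3-fold and 9.43-fold lower. Of 9 cartilage genes 2 rose and 6 fell. Col15a1, a collagen of basement membrane zones, rose from 99.4, 110 and 108 to 1563, 1462 and 2139 CPM. Col14a1, a fibril-associated collagen gene, fell from 390, 368 and 375 to 2.21, 19.97 and 44.1 CPM.

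More genes of the proteoglycan, basal lamina, chemokine and complement, and MHC class I lists rose than fell. Of 19 proteoglycans 12 rose and 3 fell (median 1.06), with Lum going from 2216, 2239 and 2223 to 11080, 12600 and 8978 CPM and Dcn (decorin) from 8063, 8755 and 8373 to 57310, 56050 and 46180. Of 11 basal lamina genes 6 rose and 3 fell, with Nid1 (nidogen 1) going from 188, 171 and 190 to 650, 650 and 903 CPM. Of 15 chemokine and complement genes 12 rose and 2 fell, with a median of 2.35. Ccl11 went from 1742, 1851 and 1936 to 3257, 3626 and 3245 CPM (0.97 ± 0.10, edgeR adjusted p = 1.1e-06), and Cxcl1 fell from 622, 638 and 529 to 139, 198 and 161. Of 7 MHC class I genes 6 rose and 0 fell (median 3.61), with H2-D1 going from 17.8, 23.9 and 18.4 to 466, 448 and 460 CPM. H2 genes have near-identical copies, so single members of that family are uncertain.

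Cell cycle inhibitors moved in both directions. Of 9 D cyclins and kinase inhibitors 5 rose and 4 fell. Cdkn2a rose from 36.7, 34.5 and 32.1 to 168, 244 and 260 CPM (2.80 ± 0.15, edgeR adjusted p = 1.4e-10), with a UMI in 10.2% of P1 and 35.6% of P60 cells at 3000 UMIs each, against 0.0605% and 1.47% of epineurial-like cells. Cdkn1a rose from 21.5, 12.9 and 13.5 to 97.3, 93.2 and 106 CPM. Ccnd1 (cyclin D1) fell from 503, 518 and 522 to 77.4, 109 and 92.5 CPM. Cdkn1c, an imprinted inhibitor gene, fell from 1335, 1299 and 1436 to 274, 333 and 282 CPM.

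The other lists moved less uniformly. Of 23 mesenchymal transcription factors 9 rose and 2 fell, Ebf1 (an early B cell factor family gene) rising from 267, 267 and 272 to 681, 774 and 899 CPM, while Etv1 stood at 142, 160 and 174 CPM at P60 and did not pass. Of 12 axon guidance ligands 7 rose and 3 fell, of 14 TGF-beta and BMP genes 7 and 1, of 15 trophic factors 5 and 3, of 9 Wnt genes 3 and 2, and of 9 hedgehog genes 1 and 2. Bmp5 rose from 5.08, 5.61 and 7.80 to 102, 93.2 and 167 CPM. Il34, a ligand of the macrophage growth factor receptor, rose from 3.11, 1.96 and 1.61 to 99.5, 135 and 37.4 CPM. Of 14 dissociation response genes 3 rose and 7 fell, and Fosb stood at 146, 102 and 445 CPM at P60, with P60 replicate 3 the highest.

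The age change of the endoneurial-like cells was then compared with that of the other Col1a2 cells. Of 14997 genes tested, 1298 (8.66%) had a more positive log2 change from P1 to P60 in the endoneurial-like cells than in the others, and 1669 (11.1%) had a more negative one (edgeR interaction of age and cell kind, with library as a block, adjusted p under 0.05). Cells with a Sox10 UMI, a Schwann cell factor, made up 27.1% of the other cells at P1 and 1.73% at P60. Without the cells that had a Sox10, Pecam1, Ptprc, Mki67 or Top2a UMI among the others, 1112 genes had a more positive and 1743 a more negative change, and 2251 of the 2967 genes called with all of them were called in the same direction. When only epineurial-like cells stood for the others, 1599 of the 2967 were. The balance of the 2 directions depended on the scaling, with 1532 more positive and 1388 more negative by library size alone and 1218 and 1069 with DESeq2.

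Among the genes with the greatest difference in change, some moved in opposite directions in the 2 kinds of cell. Thbd (thrombomodulin, an anticoagulant receptor) fell from 459, 443 and 452 to 24.3, 13.3 and 19.8 CPM in the endoneurial-like cells. In the other Col1a2 cells it went from a mean of 123 to 151 CPM (interaction -4.95, edgeR adjusted p = 1.7e-49, and -5.47 against the epineurial-like cells). Aldh1a3, a retinoic acid synthesis gene, fell from 73.7, 70.7 and 67.7 to 15.5, 8.88 and 13.2 CPM against a rise from 18.6 to 64.7 in the others (-4.38, edgeR adjusted p = 6.6e-33). Both kept a change of opposite sign against the epineurial-like cells, which went from 77.4 to 144 CPM for Thbd and from 25.2 to 85.9 CPM for Aldh1a3.

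Vwa1, Vit and Aspa rose more in the endoneurial-like cells. Vwa1, a matrix protein gene, went from 41.2, 41.0 and 48.4 to 1088, 1127 and 749 CPM, while the other cells stood at 91.2 and 80.3 (interaction 4.597, edgeR adjusted p = 1.2e-61, and 2.20 against the epineurial-like cells). Vit (vitrin, a matrix protein) went from 13.6, 9.26 and 9.64 to 909, 892 and 698 CPM against 38.1 to 152 (4.19, and 4.39 against the epineurial-like cells). Aspa (aspartoacylase) went from 6.50, 4.49 and 3.90 to 144, 142 and 119 CPM, and its interaction of 6.21 was 2.26 against the epineurial-like cells. Psat1 and Cdkn1a also had a smaller difference against the epineurial-like cells, 1.425 and 1.86, than against all other Col1a2 cells, 4.03 and 4.11.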

How the data were processed

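The deposited files hold UMI counts per gene and cell, raw and not normalized. Per the labels and the study's methods, the authors made 10x Single Cell 3′ v2 libraries and processed them with Cell Ranger 2.0.2; the submitters' processing notes name GRCm38.p5. Cells with 500 to 5000 genes were kept, and no doublet caller was run. Libraries held 3467 to 4609 barcodes and 20203440 to 30334608 UMIs. Mouse coordinates are from GENCODE M21, which held 41519 of 41605 gene identifiers, and promoters from RefSeq.

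The members and gene lists were chosen with earlier results of these data known. Counts were summed per library and kind of cell. Levels are CPM of those sums, described at P1 as log2 ratios with 10 CPM added. Genes under 10 CPM in both kinds of cell were left out of those counts. Age and its interaction with cell kind were tested with edgeR 4.0.16 (TMM, filterByExpr, glmQLFit, glmQLFTest) in R 4.3.3, with Benjamini-Hochberg adjustment over all genes tested and calls at 0.05, and with library as a block for the interaction. The 15 genes that the selection reads were left out. Shares were tested by an exact permutation test, two-sided. The scripts were tested on simulated data. P-values measure the spread between 3 suspensions per age.

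Named genes were the 30 with the greatest and the 10 with the lowest P1 ratio at 50 CPM or more and the same direction in 3 of 3 libraries, the 10 with the greatest age change each way without overlap of the ages, the 8 with the greatest interaction each way, and up to 4 per list by size. Others are named as chosen after their values were seen. Some genes that these rules name are not reported here. Intervals and bounds cover counting error only, and a group at 0 was set to 3 UMIs for a bound. Alternatives were scaling by library size, DESeq2 1.42.0, no filter on low counts, the replicate block, each library left out, other limits, thinned cells and 50 cells drawn.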

Additional observations from a re-analysis of the deposited data

Results flagged for a closer look

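For 16 genes the change from P1 to P60 differed between the endoneurial-like cells and the other Col1a2 cells by the interaction test, the 8 greatest in each direction at 50 CPM or more. The more positive changes were those of Cpxm2 (log2 difference of the changes 6.71), Aspa (6.21), Medag (5.65), Efemp1 (5.43), Vwa1 (4.597), Vit (4.19), Cdkn1a (4.11) and Psat1 (4.03). The more negative changes were those of Igfbp2 (-10.37), Pdlim3 (-8.51), Sox11 (-8.26), Ntng1 (-5.36), Emcn (-5.10), Thbd (-4.95), Aldh1a3 (-4.38) and Basp1 (-4.30).

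Cpxm2, Igfbp2, Pdlim3 and Sox11 had 0 UMIs in the endoneurial-like cells at 1 age, so their fitted values depend on the prior count and are no bounds. Sox11 did not pass when P60 replicate 1 (edgeR adjusted p = 0.069), 2 (0.057) or 3 (0.053) was left out, nor did Pdlim3 without P60 replicate 2 (0.063) or 3 (0.072). Against the epineurial-like cells alone, 13 of the 16 passed in the same direction. Cpxm2 had 4.50 (edgeR adjusted p = 0.17), Igfbp2 -5.17 (edgeR adjusted p = 0.38) and Ntng1 -1.28 (edgeR adjusted p = 0.052) in that comparison. Ntng1, a membrane-anchored netrin gene, stood at 62.2, 64.3 and 69.8 CPM in the endoneurial-like cells at P1 and at 6.63, 6.66 and 6.61 at P60, and rose from a mean of 58.4 to 227 CPM in the other Col1a2 cells while it fell to 5.08 CPM in the epineurial-like cells. Psat1, a serine synthesis gene, stood at 51.7, 54.7 and 48.7 CPM at P1 and at 79.6, 73.2 and 66.1 at P60, against a fall from 83.3 to 6.76 CPM in the others.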

How the results depend on the processing

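The P60 cells under the limits are few and shallow, the labels give no batch, and each contrast with other cells depends on which cells those are. No named gene's change reversed under any alternative run, but the balance of the counts did. By library size alone, 1731 genes were higher and 2233 lower by age (1957 and 1849 by TMM), and 1532 and 1388 by interaction (1298 and 1669), while DESeq2 gave 1886 and 1688 by age and 1218 and 1069 by interaction. The age balance also turned with no filter on low counts (1991 higher, 2582 lower) and without P60 replicate 1 (1660, 1748), 2 (1649, 1708) or 3 (1779, 1860). The 3806 genes called by age became 2385 when the limits were set on cells thinned to 3000 UMIs, 2370 when cells were thinned after selection (added after seeing the data) and 1474 with 50 cells drawn per library and kind, each of which also tested fewer genes. Leaving out 1 library gave 2646 to 3639. The 2967 interaction calls became 1864 without the library block, 1663 with the thinned limits and 667 with 50 cells drawn, and 2293 to 2839 with 1 library left out. The 165 genes at least 2-fold higher at P1 became 285 with 1 CPM added in place of 10 and 317 against cells with Pi16 and Clec3b over 3 (added after seeing the data), and 168 to 191 with 1 library left out. The share difference ranged from -7.77 to -8.60 points with 1 library left out, where the smallest exact permutation p is 0.2. Size factors of DESeq2 called 3574 genes by age and 2287 by interaction.

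Over the genes named for age, 828 of 843 alternative values kept direction and call, 11 lost the call and 4 gained it. Plxdc1 lost it under 5 settings, 2 of them the loss of P60 replicate 1 or 2, and Ccl2 lost it with thinned limits (edgeR adjusted p = 0.82) and with 50 cells drawn (0.52). Foxs1 passed without P60 replicate 3 (edgeR adjusted p = 0.0041). Over the 16 interaction genes, 288 of 304 values held and 16 lost the call. Sox11 lost it without any 1 P60 replicate, and Pdlim3 without P60 replicate 2 or 3. With thinned limits, Cpxm2 (edgeR adjusted p = 0.073) and Pdlim3 (log2 difference -1.24, edgeR adjusted p = 0.66) lost it. Cpxm2 also lost it without the library block (edgeR adjusted p = 0.074). Cpxm2, Igfbp2, Pdlim3, Sox11 and Basp1 lost it with 50 cells drawn. The other losses were against the epineurial-like cells alone. Of 520 P1 ratios 188, and of 648 list values 56, moved by more than the spread between libraries.

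With the replicate number as a block, 3681 genes were called by age (1901 higher, 1780 lower). Libraries with the same number deviated together with correlations of -0.00749, 0.0309 and 0.0357, so the numbers did not pair the samples.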
